A study of Mus musculus with 2 samples.

Results

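Glycolytic enzymes, lactate dehydrogenases and the lactate transporter Slc16a1 were followed in testes of day 10 mice. The genes considered were Gpi1, Pfkl, Aldoa, Tpi1, Pgam1, Eno1, Pkm, Ldha, Ldhb and Slc16a1, and a probe set belonged to the group if the platform annotation gave it exactly 1 gene symbol and that symbol was one of these 10. The rule found 11 of the 12422 non-control probe sets. They covered 8 of the 10 genes, out of 8251 genes that the array reads with such probe sets. No probe set was annotated to Gpi1 or Eno1, also not among those with several symbols, so these genes have no value here.

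Polyadenylated RNA was measured on 1 single-colour Affymetrix mouse array from heterozygous (Mili+/-) testes, which serve as the control, and on 1 from homozygous mutant (Mili-/-) testes. Mili, now named Piwil2, encodes a Piwi protein of germ cells, and per the labels the mutant's spermatogenesis stops early in meiotic prophase. The control animals carry a mutant allele too, and the sources used here name neither the strain nor the number of mice per array. With 1 array per genotype there is no replicate and no test, so every difference describes these 2 arrays. In a whole testis, fewer cells of a type and less RNA per cell cannot be told apart.

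Glycolysis splits glucose into pyruvate, and lactate dehydrogenase converts pyruvate into lactate and back. In the seminiferous tubule, Sertoli cells are known for breaking down much glucose to lactate and exporting it, and germ cells that have entered meiosis for taking up that lactate as fuel. Lactate crosses membranes through monocarboxylate transporters such as MCT1, the product of Slc16a1.

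The group as a whole differed little between the arrays. Of the 11 probe sets, 9, from 7 genes, passed a brightness filter that asks for a signal at or above the array's median (38.5 for Mili+/- and 41.55 for Mili-/-) on at least 1 array. These 9 passed it on both arrays, and also passed a stricter filter at the 75th percentile. Differences are given on the log2 scale as Mili-/- minus Mili+/-, after each array was centred on its median. None of the 9 reached a 2-fold difference, against 0.982% of the 5909 probe sets with 1 symbol past the filter, and none reached 1.5-fold, against 7.89%. With so few members, counts of 0 are near these background shares and say nothing particular about the group. The deposited signal was higher on the Mili-/- array for 8 of the 9.

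**Figure D1:**
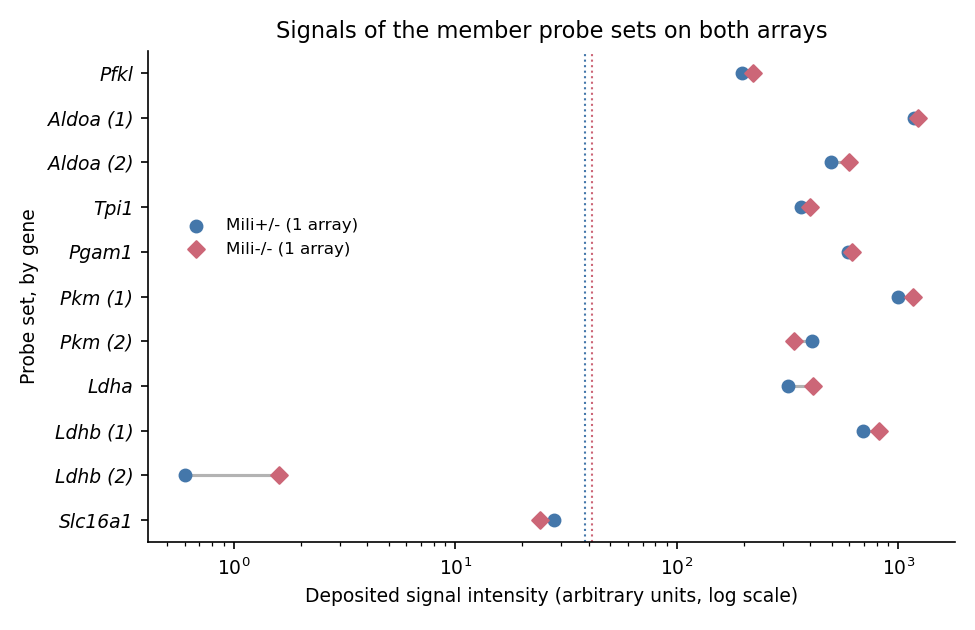
Deposited signal intensity (log axis, arbitrary units) of the 11 probe sets, with a circle for the Mili+/- array and a diamond for the Mili-/- array, 1 array each. Dotted lines mark each array's median signal, and the second Ldhb probe set and Slc16a1 lie to the left of them. Of the 9 to the right, only the second Pkm probe set is lower on the Mili-/- array.

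The members' differences lay between -0.38 and 0.26, with a median of 0.05. The median over all 5909 probe sets was -0.12, because the deposited signals of brighter probe sets were shifted less (log2) than the array medians. Of the 9, 6 lay above 0, against 32.1% of the 5909, and 8 lay above the median of all. As deposited and after loess on brightness, 8 of 9 lay above 0, against 47.9% and 48.9% of the 5909. After quantile normalization 7 of 9 did, against 48.6%, and 7 lay above the median of all. The spread that these arrays can give is that among the probe sets of a gene, with a pooled SD of 0.31 (log2) over the 720 genes for which several passed the filter. It covers neither animals nor hybridisations. Of the 9 members, 8 differed from 0 by less than this SD, the exception being the second Pkm probe set (-0.38). Measured from the median of all 5909 instead, that Pkm probe set lay within the SD (-0.26) and Ldha lay past it (0.39). Which member exceeds the SD thus depends on the reference.

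**Figure D2:**
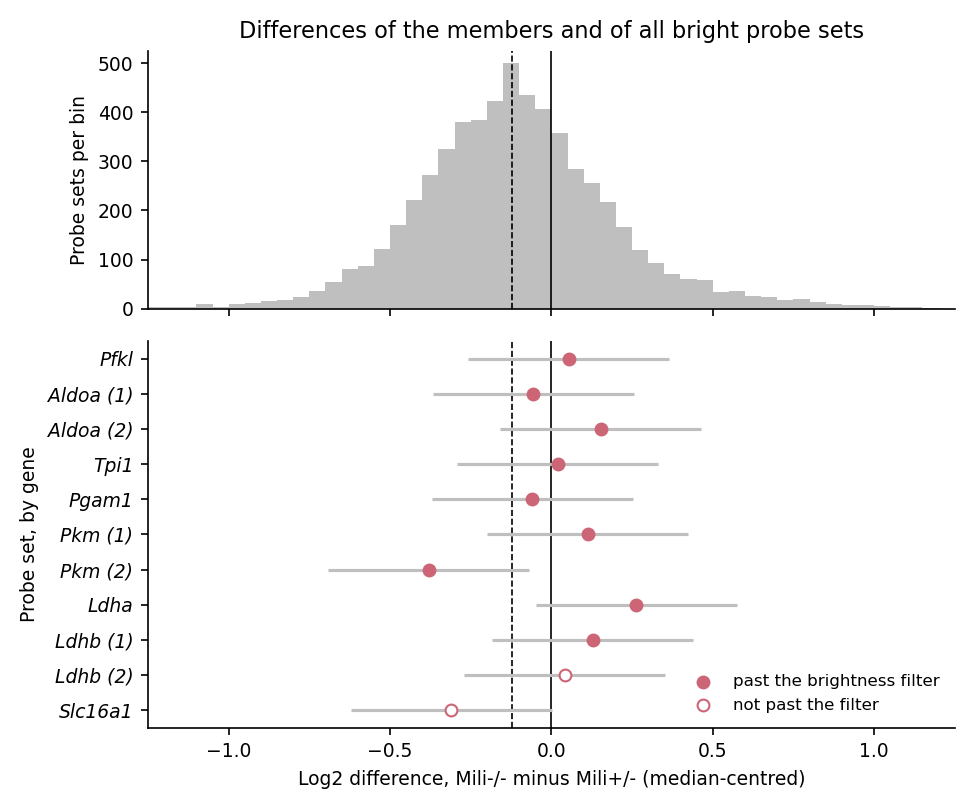
Top, number of probe sets per bin of the log2 difference (Mili-/- minus Mili+/-) among the 5909 past the filter, of which 21 lie outside the plotted range. Bottom, the 11 member probe sets with bars of 1 SD between probe sets of one gene (0.31); open circles did not pass the filter, and the second Ldhb probe set is plotted at the floor. The dashed line at -0.12 is the median of all, and 8 of the 9 filled circles lie to the right of it.

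In the preparatory steps, which spend ATP on sugar phosphates, Pfkl and Aldoa were measured. Pfkl encodes the liver-type subunit of phosphofructokinase, which catalyses the committed step of glycolysis. Its signal was 197 in Mili+/- and 221 in Mili-/-, a log2 difference of 0.05. Aldoa encodes aldolase A, which cleaves fructose bisphosphate, and was read by a pair of probe sets whose suffix marks a family of similar sequences. The brighter had signals of 1181 and 1226 (-0.06), and the other 497 and 597 (0.15). They disagreed by 0.21, less than the SD of 0.44 that the gap of 2 probe sets of one gene has. The brighter one's direction depended on scaling, with 0.05 for the values as deposited, 0.02 after loess and -0.02 after quantile normalization.

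In the steps from triose phosphate to pyruvate, Tpi1, Pgam1 and Pkm were measured. Tpi1, the triosephosphate isomerase, had signals of 365 and 399 (0.02). Pgam1, the phosphoglycerate mutase of most tissues, had 595 and 616 (-0.06), and its difference turned to 0.05 as deposited, after loess and after quantile normalization. Both lay within the SD of 0.31 of 0.

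Pkm encodes the pyruvate kinases M1 and M2, which arise by alternative splicing and make pyruvate and ATP. Its probe sets pointed in opposite directions. One, with a suffix for sequence shared between transcripts, had signals of 995.5 and 1161 (0.11). The other, with a suffix for a family of similar sequences, had 406 and 337 (-0.38, 1.30-fold lower), the lowest value in the group and the only one of the 9 below the median of all 5909. The gap of 0.49 compares with an SD of 0.44 for such gaps, so no direction is given for Pkm. The directions of both probe sets were the same as deposited, after loess and after quantile normalization. The parts of the transcript they read are not known here, so they were not assigned to splice forms.

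The lactate dehydrogenase genes showed the highest value in the group. Ldha encodes the M subunit, which is typical of tissues that make lactate, and Ldhb the H subunit, typical of tissues that oxidise it. Ldha had signals of 317 in Mili+/- and 411 in Mili-/-, a log2 difference of 0.26 (1.20-fold higher). That lay at percentile 89.9 of the 5909 probe sets, above their median by 0.39, and stood at 0.37 to 0.39 as deposited, after loess and after quantile normalization. The bright Ldhb probe set had 689.5 and 814 (0.13, 1.09-fold higher), or 0.20 to 0.24 in the other scalings. Ldha exceeded Ldhb by 0.13, less than the 0.44 above, so the data give no order between the subunits. A second Ldhb probe set was listed at 0.6 and 1.6, under the floor set at the 20th percentile (6.3 and 7), and gives no difference.

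Slc16a1 was dim. Its signals of 27.8 in Mili+/- and 24.2 in Mili-/- were under the median of both arrays, and it did not pass the filter. The log2 difference was -0.31, and -0.20 to -0.33 in the other scalings, close to 1 SD between probe sets of one gene for brighter genes. No detection call came with the values, so whether the transcript was above background is not known.

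**Figure D3:**
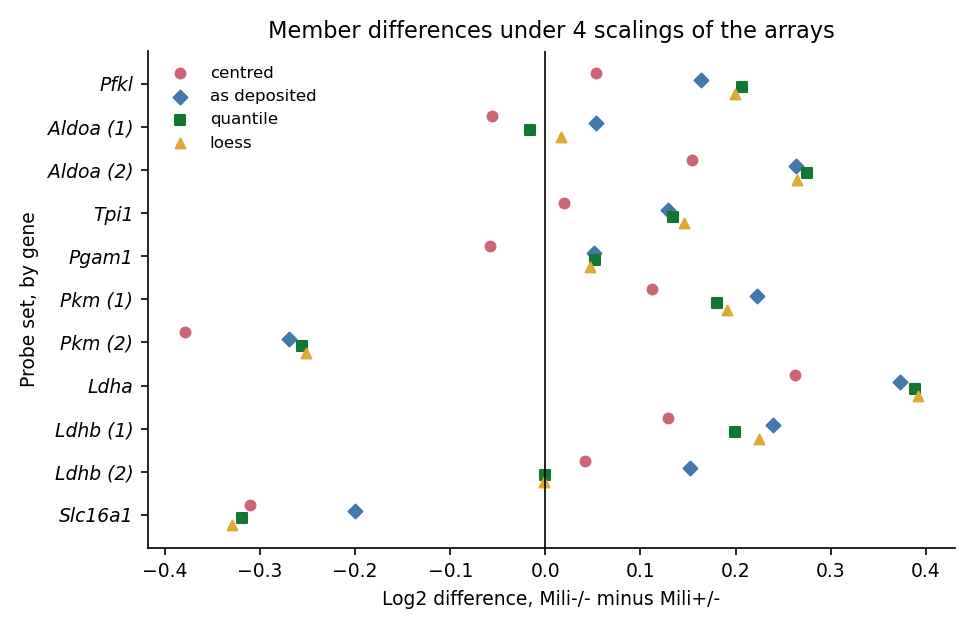
Log2 difference (Mili-/- minus Mili+/-) of the 11 member probe sets under 4 scalings of the arrays, as a circle (centred on the median), diamond (as deposited), square (quantile normalization) and triangle (loess on brightness). Ldha is the highest in each, at 0.26 to 0.39, while the brighter Aldoa probe set and Pgam1 fall on both sides of 0.

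The promoters of both lactate dehydrogenase genes are shown because these were the highest single-gene values with a suffix-free probe set, and because Ldha is a known target of the hypoxia factor HIF and of Myc. Each is the 250 bases before a RefSeq transcription start in GRCm38.p6, 5′ to 3′ on the gene's strand. Capitals mark ACGTG, a form of the core of HIF sites, and the GC box (GGGCGG), searched on both strands. The form GCGTG was neither searched nor marked, so a window without ACGTG may still hold a HIF core. For Ldha the first of 2 listed starts is used (chr7:46845554-46845803, + strand), and for Ldhb the only one (chr6:142507958-142508207, - strand).
Ldha: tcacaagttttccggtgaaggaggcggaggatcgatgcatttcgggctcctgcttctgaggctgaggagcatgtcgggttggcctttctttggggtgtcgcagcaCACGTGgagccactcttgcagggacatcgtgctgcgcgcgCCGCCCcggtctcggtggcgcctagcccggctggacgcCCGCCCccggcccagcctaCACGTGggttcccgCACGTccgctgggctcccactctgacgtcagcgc
Ldhb: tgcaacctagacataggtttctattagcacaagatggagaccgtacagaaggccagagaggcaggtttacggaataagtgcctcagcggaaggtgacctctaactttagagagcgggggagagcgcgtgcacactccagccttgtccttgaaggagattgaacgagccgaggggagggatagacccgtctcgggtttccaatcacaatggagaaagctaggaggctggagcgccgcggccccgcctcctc

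The Ldha window held ACGTG at 3 places, 2 of them within the palindrome CACGTG (an E-box, which holds ACGTG on both strands), and 2 GC boxes. The window of the other listed Ldha start held none of the 3 motifs. The Ldhb window held neither ACGTG nor GGGCGG. The window of Slc16a1 held ACGTG at 1 place, also within CACGTG. The 10 genes had 16 windows in the RefSeq table, some of them overlapping, of which 6 held ACGTG, 2 held CACGTG and 9 held GGGCGG. Of all 32851 windows in the table, 16.6% held ACGTG, 6.02% held CACGTG and 32.7% held GGGCGG. No binding was measured.

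The other glycolytic enzymes had a median close to that of the members, over a wider range (-0.45 to 0.86, against -0.06 to 0.26 for the member genes). The range of the member genes leaves out the dimmer Pkm probe set, and over all member probe sets past the filter it was -0.38 to 0.26. The summed deposited signal of the other glycolytic enzymes with a probe set went from 2605 in Mili+/- to 2443 in Mili-/-. Hk1, lower on the Mili-/- array, was the largest part of it. That of the member genes went from 4368 to 4872. Both sums are uncentred and so include the shift of 0.11 (log2) between the array medians, which were higher on the Mili-/- array. These lists, and the members, were chosen with earlier results of these data known. Taking the brightest probe set per gene, 8 of the 13 enzymes with a probe set, out of 19 listed, passed the filter. None of the 8 reached 2-fold (0.844% of all 5095 genes), and their median was 0.02 against -0.13 for all 5095 genes. Of the 8, 7 lay above that median, as did all 7 member genes (median 0.05). After quantile normalization it was 7 of 8 and 6 of 7. The exception was Hk1, the hexokinase that phosphorylates glucose in most tissues, with signals of 1589 and 1259 (-0.45, 1.36-fold lower). Hk2, the insulin-responsive hexokinase, had 323 and 375 (0.11), and Pgk1, the phosphoglycerate kinase, 190.5 and 212 (0.04). The highest was Eno3, the muscle-type enolase, with 36.5 and 71.4 (0.86, 1.81-fold higher), which reached the filter's signal on the Mili-/- array only. Gapdh was read alone by control probe sets, whose 3′, middle and 5′ versions stood at 0.04, 0.01 and 0.03.

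Of 15 listed genes of glucose uptake and monocarboxylate transport, 11 had a probe set and 2 passed the filter, against 5095 of all 8251 genes. Slc2a8, a glucose transporter of intracellular membranes, had signals of 75.6 and 92.7 (0.18), and Bsg, the chaperone that brings MCT1 to the cell surface, 910 and 898 (-0.13, about the median of all genes). Slc2a1 and Slc2a3, which encode the widespread glucose transporters GLUT1 and GLUT3, were dim and did not pass the filter. Slc2a1 had signals of 21.6 and 10.8 (-1.11, or -1 to -1.17 in the other scalings); both lie under the 40th percentile of their array, and a floor set there leaves no difference (0.02). The brighter Slc2a3 probe set had 35.4 and 30.8 (-0.31). Of the germ cell isoforms of glycolysis, none of the 5 genes with a probe set passed the filter. Ldhc, the lactate dehydrogenase of later meiotic cells and spermatids, was listed at 1.2 and 0.8.

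All 13 Sertoli cell markers with a probe set and 9 of 10 germ cell markers passed the filter. So did 6 of 8 adipocyte markers, 4 of 6 erythroid markers and 5095 of all 8251 genes. Passing it therefore does not by itself bear out the labelled tissue. The cell type markers differed between the arrays beside the members' values. Of 13 Sertoli cell markers past the filter, 9 lay above 0 (median 0.07). Their summed signal, over all with a probe set, was 5720 in Mili+/- and 6626 in Mili-/-. The summed signals of the marker lists are as deposited, so they too include the shift of 0.11 (log2) between the array medians. All 9 germ cell markers past the filter lay below 0 (median -0.53, summed signal 3622 and 3068), although Ddx4 turned to 0.02 after loess and after quantile normalization. Only 31.05% of all 5095 genes lay above 0. Sall4 (-0.84), the lowest germ cell marker, reached the filter's signal on the Mili+/- array only, where a lower value is favoured. All 4 erythroid markers (median 0.80, summed signal 1520 and 2055) and all 6 adipocyte markers (median 0.77, summed signal 363 and 653) past the filter lay above 0, of which 2 erythroid and 3 adipocyte markers reached the filter's signal on the Mili-/- array only, where a higher value is favoured. The 4 Leydig cell markers past the filter lay below 0 (median -0.29, summed signal 774 and 693), with Cyp11a1 turning to 0.05 to 0.08 in the other scalings. As most genes lay below 0, this count is near the background, and Star (-0.23) reached the filter's signal on the Mili+/- array only. Of the skeletal muscle markers 2 of 11 passed, Actn3 (-0.51) and Myog (-1.37), with a summed signal over the list of 208 and 171.5, and Myog too did so on the Mili+/- array only. No probe set of these lists was listed at 0 on either array. The part of these cell types in the members' differences was not tested.

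**Figure D4:**
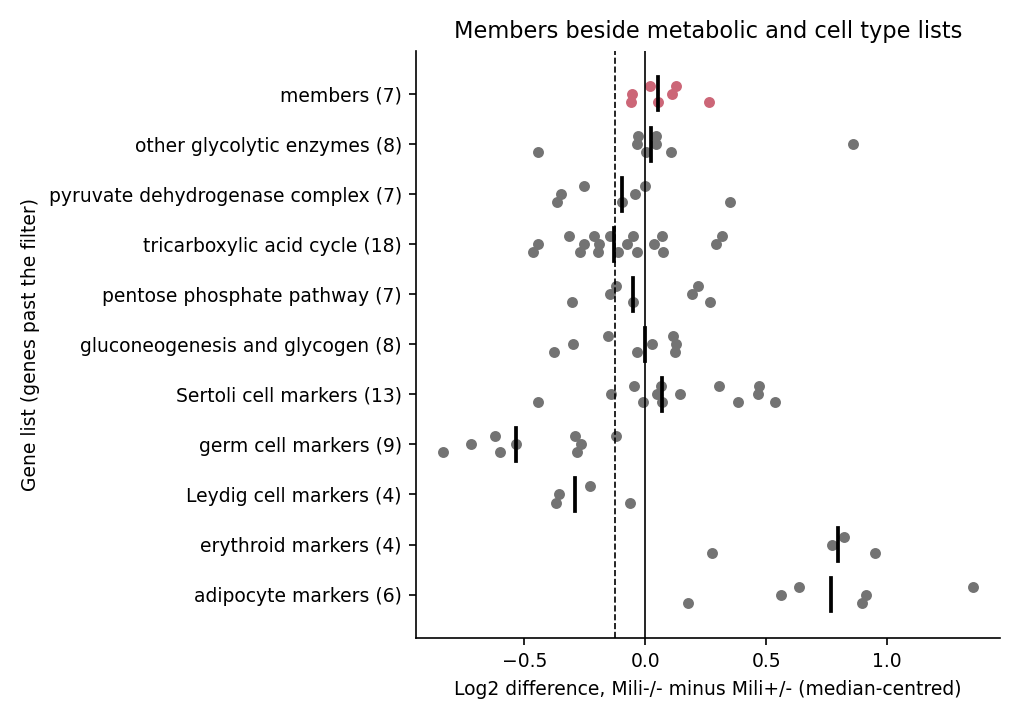
Log2 difference (Mili-/- minus Mili+/-) of each gene past the filter, by list, with the number of genes in brackets and a bar at the list's median. The dashed line at -0.13 is the median of all 5095 genes. The members and the other glycolytic enzymes sit to the right of it apart from Hk1. So do 11 of 13 Sertoli cell markers (not Inhbb and Wt1) and all erythroid and adipocyte markers. The same holds for 5 of 7 pentose phosphate genes and 5 of 8 genes of gluconeogenesis and glycogen. The germ cell markers lie to the left except Ddx4, which lies on it.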

How the data were processed

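The authors deposited a signal intensity on a linear scale for each probe set of both arrays, which from its values appears already scaled between arrays. The tool that made them is not given in the sources used here. Symbols came from the platform annotation, with 10817 of 10833 single-symbol probe sets matched by Entrez ID to RefSeq (GRCm38.p6). The 66 control probe sets were left out unless named. Values under an array's 20th percentile were raised to it, log2 was taken, and each array's median was subtracted, which removed a shift of 0.11. A gene took its brightest probe set. Alternatives were other scalings, floors, filters, fold thresholds, probe sets without a suffix, the mean over probe sets, and leaving out each member gene. Named genes were all members, up to 3 per metabolic list by absolute difference past the filter, and fixed reference genes; Slc16a3 had no single-symbol probe set. Other genes were named after their values were seen. The members and lists were chosen with earlier results of these data known. No p-value is given. The code was tested on simulated data. Python 3.11.15, NumPy 2.4.6, pandas 2.3.3 and statsmodels 0.14.6 (loess span 0.4) were used. The number of arrays limits the precision.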

Additional observations from a re-analysis of the deposited data

How the results depend on the processing

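The members' median over probe sets was 0.05 after centring, 0.16 as deposited, 0.18 after quantile normalization and 0.19 after loess, and 0.04 without the brightness filter; over all probe sets past the filter the medians under the scalings were -0.12, -0.01, -0.01 and -0.01. Without each member gene in turn the median over genes ranged from 0.04 to 0.08. No member probe set past the filter reached 1.5-fold, 2-fold or 3-fold after centring, nor 2-fold under the other scalings, floors and filters run. The medians of the members and of the other glycolytic enzymes lay above 0 and that of the tricarboxylic acid cycle below 0 under every alternative run for them. Those of 5 lists took both signs, the pyruvate dehydrogenase complex (-0.25 to 0.01), the pentose phosphate pathway (-0.08 to 0.10), gluconeogenesis and glycogen (-0.09 to 0.11), glucose uptake and monocarboxylate transport (-0.13 to 0.14) and the hypoxia and Myc regulators (-0.20 to 0.03). Among member probe sets the largest move was that of the second Ldhb one, to 1.30 without the floor, where its values are 0.6 and 1.6. Settings that change only the filter or the probe sets cannot move the difference of a single probe set. No paired analysis was possible because each genotype has 1 array.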

Other observations

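Downstream of pyruvate, the median of the tricarboxylic acid cycle list lay at that of all genes. Of its 18 genes past the filter, which include cytosolic forms such as Idh1 and Mdh1, 9 lay above the median of all genes and 9 below, and their median was -0.13, against -0.13 for all 5095 genes. Sucla2, a subunit of succinyl-CoA synthetase, had signals of 294.5 and 231 (-0.46), Idh1, the cytosolic counterpart of the cycle's isocitrate dehydrogenases, 306 and 243 (-0.44), and Idh3a, a subunit of the NAD-dependent mitochondrial enzyme, 36.4 and 48.9 (0.32). Of the pyruvate dehydrogenase complex and its kinases, 4 of 7 lay above the median of all genes (3 of 7 after loess and after quantile normalization), with Dld at -0.36, Pdhb at -0.35 and Dlat at 0.35; these encode 3 of the components that turn pyruvate into acetyl-CoA. None of these genes reached 2-fold.

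Of the pentose phosphate pathway, which makes NADPH and ribose from glucose, 5 of 7 genes lay above the median of all genes, with Taldo1 at -0.30, Rpe at 0.27 and Pgd at 0.22. Rpe, like Idh3a, reached the filter's signal on the Mili-/- array only. For gluconeogenesis and glycogen it was 5 of 8, with the muscle glycogen phosphorylase gene Pygm at -0.38, Pgm1 at -0.30 and Pck2 at -0.15. Of the hypoxia and Myc regulators, 3 of 8 lay above it. Vhl, which marks HIF for degradation, had signals of 39.4 and 28.8 (-0.56) and reached the filter's signal on the Mili+/- array only, Epas1, which encodes HIF-2α, had 48.8 and 72.6 (0.46), and the HIF target Bnip3 stood at -0.31. The difference between these lists and the members was not tested.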
